A study of Mus musculus with 24 samples.

Results

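Granule neuron precursors are the dividing cells of the outer cerebellum that give rise to granule neurons. A panel of 10 of their genes was chosen by name (Nhlh1, Dcx, Sox11, Zic1, Zic2, Atoh1, Barhl1, Pax6, Neurod1 and Rbfox3), with earlier results of these data known. The panel was followed among 22180 measured genes in cells sorted as endothelium. In arrays from Shh medulloblastoma, 9 of the 10 genes were higher than in hindbrain arrays, where 18.9% of all genes were called higher. The rise was a fitted 1.87-fold for Neurod1, which was within the background in 3 hindbrain arrays. For Nhlh1, within the background in all hindbrain arrays, it was at least 8.59-fold. In arrays from Wnt medulloblastoma, Sox11 was higher than in hindbrain (6.33-fold), Zic2 was lower (5.04-fold), and the other 8 did not pass the test. Over all genes, 45.3% were called in either direction in Wnt against hindbrain. Zic2 was the single gene of the panel that did not pass in Shh against hindbrain.

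Granule neuron precursors arise from the rhombic lip, a germinal zone at the edge of the developing hindbrain, under the transcription factor Atoh1. They divide in response to Shh secreted by Purkinje cells, then leave the cell cycle, switch on factors such as Neurod1, and migrate inward as young neurons. Constant activation of the Shh pathway in these cells, as after loss of Ptch1, gives rise to the Shh kind of medulloblastoma, while Wnt medulloblastoma is held to arise from progenitors of the dorsal brainstem. The panel was meant as a measure of tumour cell RNA in the sorted vessel cells.

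The 24 arrays fall into 3 groups of 8, called biological replicates in the labels. All mice were of mixed strain background. The hindbrain group came from adult wild type mice, the Shh group from tumours of mice with the alleles Ptch+/- and Ink4c-/-, and the Wnt group from tumours of mice carrying Blbp-Cre with Ctnnb1 +/Exon3 flox, Trp53 flox/flox and Pik3ca +/flox. Blbp drives Cre in neural progenitors. In all groups, papain-dissociated cells were collected on magnetic beads through Cd105 and Cd144, surface proteins of endothelium. The labels give no ages for the tumour mice. In bulk RNA of this kind, fewer cells of a type and less RNA per cell cannot be told apart.

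Each gene was read by 1 probe set, and its level is the deposited log2 value. Array medians lay between 5.96 and 6.18, and precision is limited by the number of arrays. The 92 ERCC controls, synthetic sequences absent from the mouse, gave a 95th percentile of 5.24 for their means, taken here as the top of the background. Endothelial markers were abundant in every group. The mean of 16 such markers lay between 11.30 and 11.68 in hindbrain arrays. It lay between 11.23 and 11.74 in the Shh group, and between 9.78 and 11.11 in the Wnt group. Of these markers, 15 fell in Wnt against hindbrain, while 2 rose and 2 fell in Shh against hindbrain. Over all genes, 22% fell in Wnt, and 18.9% rose and 18.9% fell in Shh. Changes below are log2 differences of group means ± standard error from limma, with p-values adjusted by Benjamini-Hochberg over all 22180 genes and a threshold of 0.05. Each gene has a single estimate of spread shared by all groups, so arrays outside a comparison also set its standard error.

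Atoh1, a helix-loop-helix factor, specifies granule neuron precursors and keeps them dividing, and Barhl1 is a homeobox factor of the same lineage. The lowest, median and highest levels of Atoh1 were 5.43, 5.72 and 6.03 in hindbrain, 7.24, 8.55 and 10.22 in Shh, and 5.35, 5.65 and 5.82 in Wnt arrays. All 8 Shh arrays lay above all 16 others, and the Wnt and hindbrain arrays overlapped. Atoh1 was higher in Shh than hindbrain (2.87 ± 0.29, adjusted p = 2.63e-08), with -0.10 ± 0.29 in Wnt against hindbrain (adjusted p = 0.805). Barhl1 showed the same order, with 5.13, 5.31 and 5.40 in hindbrain, 7.15, 7.89 and 9.26 in Shh, and 4.84, 5.23 and 5.44 in Wnt arrays. It was higher in Shh than hindbrain by 2.78 ± 0.22 (adjusted p = 5.04e-10), and the Wnt difference was -0.077 ± 0.22 (adjusted p = 0.812). Barhl1 was under the background limit in 3 hindbrain and 4 Wnt arrays and in none of the Shh arrays.

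Nhlh1 and Neurod1 are helix-loop-helix factors of cells leaving the cycle and becoming neurons. Nhlh1 had 4.25, 4.78 and 5.09 in hindbrain, 6.30, 8.59 and 9.44 in Shh, and 4.51, 4.77 and 5.08 in Wnt arrays. All 8 hindbrain and all 8 Wnt arrays were within the background, so its rise in Shh (fitted difference 3.59 ± 0.29, adjusted p = 6.87e-10) is given as at least 8.59-fold, the Shh mean against the background limit. Wnt and hindbrain arrays were both within the background, and the fitted difference between them (0.031 ± 0.29, adjusted p = 0.942) is no measure of a fold. Neurod1 rose less, from 5.04, 5.35 and 5.57 in hindbrain to 5.75, 6.12 and 6.72 in Shh arrays, without overlap (0.90 ± 0.15, adjusted p = 2.85e-05). Its Wnt values of 4.46, 5.18 and 5.45 overlapped those of hindbrain (-0.21 ± 0.15, adjusted p = 0.259). Neurod1 was under the background limit in 3 hindbrain and 5 Wnt arrays, so these sizes are limited by the background too. A further probe set annotated with both Neurod1 and Cerkl, which names no single gene, differed more between Shh and hindbrain (3.03 ± 0.32, adjusted p = 1.09e-07 over 41345 probe sets).

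Dcx and Sox11 belong to young neurons, Dcx as a microtubule-binding protein of migrating cells and Sox11 as a transcription factor of the SoxC group that is also active in other developing tissues. Dcx had 4.26, 4.58 and 5.06 in hindbrain, 6.51, 8.40 and 9.19 in Shh, and 4.12, 4.39 and 4.71 in Wnt arrays. It stayed within the background in every hindbrain and Wnt array, so its rise in Shh against hindbrain (fitted difference 3.54 ± 0.25, adjusted p = 7.04e-11) is given as at least 7.63-fold. The fitted difference of Wnt against hindbrain (-0.22 ± 0.25, adjusted p = 0.516) lay within the background on both sides. Sox11 departed from this pattern. It had 5.29, 5.52 and 6.43 in hindbrain, 7.05, 7.89 and 8.71 in Shh, and 7.85, 8.29 and 8.85 in Wnt arrays, so that both tumour groups lay wholly above hindbrain. Sox11 was higher in Shh by 2.34 ± 0.21 (adjusted p = 6.06e-09) and in Wnt by 2.66 ± 0.21 (adjusted p = 1.76e-10). The tumour groups overlapped, with a difference of 0.33 ± 0.21 in Wnt minus Shh (unadjusted 95% interval -0.11 to 0.76, adjusted p = 0.252).

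To let the promoters of the 4 genes with the largest fitted differences in Shh against hindbrain be compared, the sequences from 250 bases before to 50 after the annotated start are given, 5′ to 3′ on the gene's strand, from RefSeq (GRCm38.p6). They are Nhlh1 at chr1:172057547-172057846 on the minus strand, Dcx at chrX:143933170-143933469 on the minus strand, Atoh1 at chr6:64728875-64729174 on the plus strand and Barhl1 at chr2:28916619-28916918 on the minus strand. Capitals mark the E-box letters CANNTG, the general motif of helix-loop-helix factors, which reads the same on both strands.
Nhlh1: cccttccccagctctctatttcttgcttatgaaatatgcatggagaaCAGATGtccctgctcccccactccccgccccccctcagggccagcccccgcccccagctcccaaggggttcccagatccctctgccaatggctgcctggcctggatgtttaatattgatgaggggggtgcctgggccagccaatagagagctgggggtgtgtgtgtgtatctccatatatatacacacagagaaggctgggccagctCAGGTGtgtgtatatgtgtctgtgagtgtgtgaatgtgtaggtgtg
Dcx: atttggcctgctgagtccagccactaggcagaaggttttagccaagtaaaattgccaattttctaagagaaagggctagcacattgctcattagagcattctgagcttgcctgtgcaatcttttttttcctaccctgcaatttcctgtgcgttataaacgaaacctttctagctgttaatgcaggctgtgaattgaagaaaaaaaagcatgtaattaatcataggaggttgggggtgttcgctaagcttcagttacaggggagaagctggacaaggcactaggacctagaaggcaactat
Atoh1: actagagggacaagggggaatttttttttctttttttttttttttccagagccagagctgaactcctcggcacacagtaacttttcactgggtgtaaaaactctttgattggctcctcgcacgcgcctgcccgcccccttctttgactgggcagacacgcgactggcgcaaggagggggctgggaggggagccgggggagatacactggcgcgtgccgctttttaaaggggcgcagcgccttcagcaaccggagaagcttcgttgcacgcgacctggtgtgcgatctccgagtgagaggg
Barhl1: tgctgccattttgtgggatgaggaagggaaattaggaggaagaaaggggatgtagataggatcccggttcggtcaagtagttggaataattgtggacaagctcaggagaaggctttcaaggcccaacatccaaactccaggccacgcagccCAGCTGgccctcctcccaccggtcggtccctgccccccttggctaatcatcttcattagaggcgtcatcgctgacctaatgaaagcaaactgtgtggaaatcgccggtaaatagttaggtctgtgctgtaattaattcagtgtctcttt

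The Nhlh1 window held 2 E-boxes and the Barhl1 window 1, while those of Dcx and Atoh1 held 0. An E-box of this general form was present in 72.3% of 32841 promoter windows of the same length, so holding one is common. The second E-box of Nhlh1, CAGGTG, is CACCTG on the other strand, a form of CANNTG present in 20.2% of all windows. The narrower form CAGCTG, contained in CANNTG, was present in the Barhl1 window and in 16.3% of all windows. The letters GACCACCCA, a form of the Gli motif of the Shh pathway, were searched on both strands and found in none of these 4 windows and in 0.253% of all windows. RefSeq windows were matched by symbol for 9 of the 10 genes. Dcx and Barhl1 have a second start in the same table, which is not printed.

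Pax6 and Rbfox3 frame the later lineage. Pax6 is a transcription factor of precursors and young granule neurons, and Rbfox3 encodes NeuN, an RNA-binding protein of differentiated neurons. Pax6 had 6.003, 6.28 and 6.57 in hindbrain, 6.32, 8.29 and 9.03 in Shh, and 6.04, 7.02 and 7.60 in Wnt arrays. It was higher in Shh than hindbrain (1.78 ± 0.30, adjusted p = 4.81e-05), although 1 Shh array, number 3, lay at 6.32 within the hindbrain range. In Wnt against hindbrain the difference of 0.64 ± 0.30 missed the threshold (adjusted p = 0.0916). It passed without Shh array 3 (adjusted p = 0.0332) or Wnt array 6 (adjusted p = 0.0435), and in a fit to hindbrain and Wnt arrays alone (adjusted p = 0.00605). A further probe set annotated with both Elp4 and Pax6 differed less, at 0.27 ± 0.077 in Shh (adjusted p = 0.00914 over 41345 probe sets) and 0.31 ± 0.077 in Wnt against hindbrain (adjusted p = 0.00274). Unlike the Pax6 probe set it did not pass between the tumours (0.032 ± 0.077 in Wnt minus Shh, adjusted p = 0.801), and it cannot be assigned to either gene. Rbfox3 had 7.25, 7.66 and 7.72 in hindbrain, 7.57, 8.54 and 9.46 in Shh, and 6.97, 7.38 and 7.82 in Wnt arrays. It was higher in Shh than hindbrain by 0.99 ± 0.17 (adjusted p = 7.08e-05), again with Shh array 3 (7.57) inside the hindbrain range, and gave -0.20 ± 0.17 in Wnt against hindbrain (adjusted p = 0.388).

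Zic1 and Zic2 encode zinc finger factors of dorsal neural progenitors that are also known from meninges. Zic1 had 8.40, 9.44 and 9.83 in hindbrain, 9.92, 10.82 and 11.06 in Shh, and 7.40, 8.44 and 10.67 in Wnt arrays. Shh arrays lay above all hindbrain arrays (1.31 ± 0.33, adjusted p = 0.00280), and Wnt arrays spread across both other groups. In Wnt against hindbrain, Zic1 gave -0.67 ± 0.33 (adjusted p = 0.104). It passed the test as lower without Wnt array 4 (-0.96, adjusted p = 0.00455) or Wnt array 5 (-0.84, adjusted p = 0.0369), with array weights (-0.79, adjusted p = 0.0192) and with arrays brought to a common median (-0.79, adjusted p = 0.0479). Zic2 was clearly above background in hindbrain, with 10.73, 10.87 and 11.03, and lay in the same range in Shh arrays, with 10.72, 10.87 and 11.34. Its Shh minus hindbrain difference was 0.034 ± 0.31 (unadjusted 95% interval -0.60 to 0.66, adjusted p = 0.945). In Wnt arrays it had 6.81, 8.62 and 10.29, below every hindbrain array (-2.33 ± 0.31, adjusted p = 5.79e-07). Both Zic genes were thus well above background in endothelial sorts of wild type adult hindbrain, with no array under 8.40 for Zic1 or 10.73 for Zic2. Their RNA in these sorts was therefore not limited to tumour samples.

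**Figure D1:**
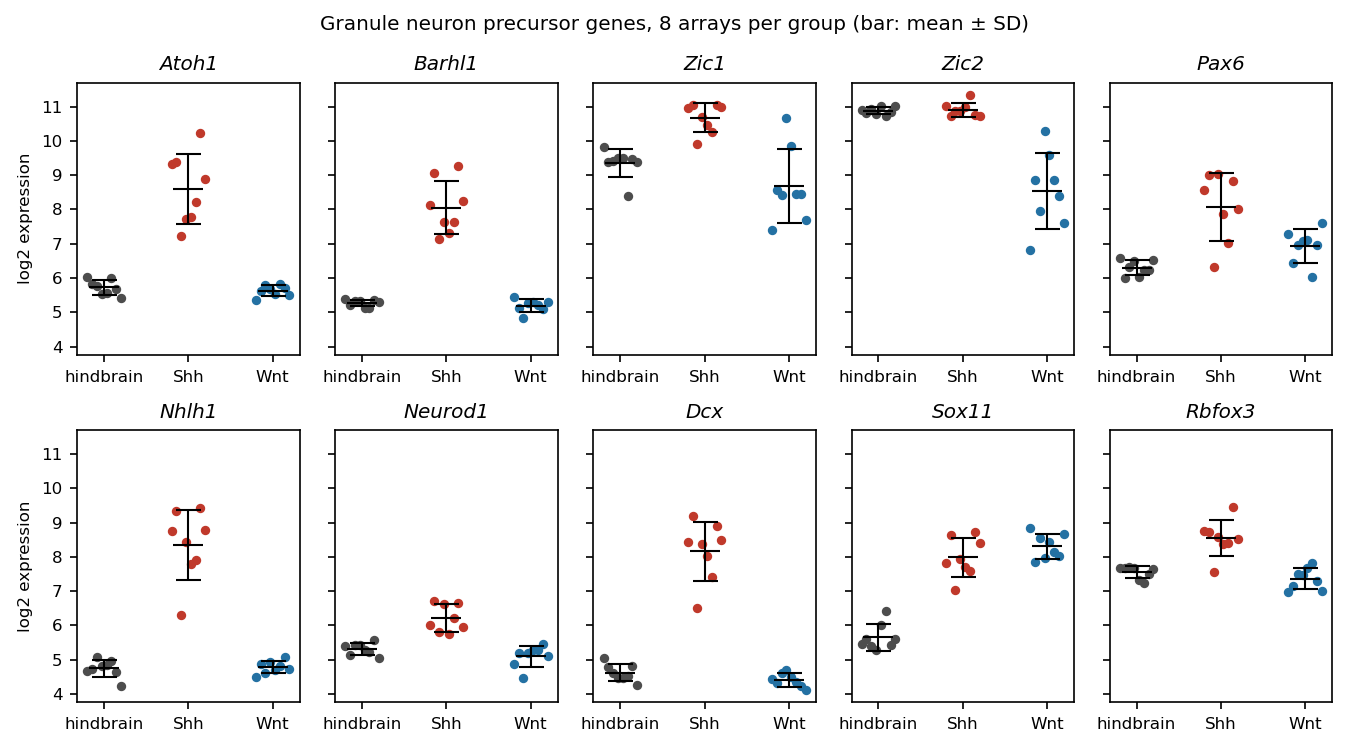
Log2 expression (vertical axis) of each of the 10 genes in hindbrain, Shh and Wnt arrays, 1 point per array and 8 per group, with bars for the mean ± SD. Shh points stand apart for Atoh1, Barhl1, Nhlh1 and Dcx, both tumour groups are high for Sox11, and Wnt points are low and widely spread for Zic2 (6.81 to 10.29).

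Counted over the panel, 9 of 10 genes were higher and 0 lower in Shh against hindbrain, where 18.9% of all genes were called higher and 37.8% in either direction. The median difference over the 10 genes was 2.06, against -0.020 over all genes. In 7 of the 10 the Shh arrays lay wholly above the hindbrain arrays, as in 7.13% of all genes, and in 0 wholly below (5.55% of all genes). In Wnt against hindbrain, 1 gene was higher and 1 lower, where 45.3% of all genes were called in either direction. With 10 genes, and a count that reached 3 under some alternatives, this is not read as a result about the panel. These 2 genes, Sox11 above and Zic2 below, were also the ones without overlap (10.6% and 9.42% of all genes). The panel's median there was -0.15, against -0.023 over all genes. Between the tumours, 9 genes were lower in Wnt than Shh and Sox11 did not pass, where 17.8% of all genes were called lower, 18% higher and 35.8% in either direction. The median was -2.18, against -0.0019 over all genes, and in 6 genes all Wnt arrays lay below all Shh arrays (4.32% of all genes), with 0 the other way (5.8%). The Shh and Wnt differences from hindbrain share the hindbrain arrays, so they are given side by side only. Because the panel was chosen with earlier results of these data known, its counts are a description and were given no test.

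In the direct comparison of the tumours, Dcx gave a fitted -3.76 ± 0.25 in Wnt minus Shh (adjusted p = 1.26e-11) and Nhlh1 -3.56 ± 0.29 (adjusted p = 4.42e-10). Both were within the background in all 8 Wnt arrays, so Shh arrays were higher by at least 7.63-fold for Dcx and 8.59-fold for Nhlh1. Atoh1 gave -2.97 ± 0.29 and Barhl1 -2.86 ± 0.22. Zic2 (-2.37 ± 0.31, adjusted p = 9.33e-07) and Zic1 (-1.99 ± 0.33, adjusted p = 3.32e-05) were lower in Wnt as well. Rbfox3 (-1.19 ± 0.17), Pax6 (-1.14 ± 0.30) and Neurod1 (-1.11 ± 0.15) passed with smaller differences. Barhl1 was under the background limit in 4 Wnt arrays and Neurod1 in 5, so the order of the sizes is not read. Zic1, Pax6 and Rbfox3 passed with arrays of the tumour groups overlapping.

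**Figure D2:**
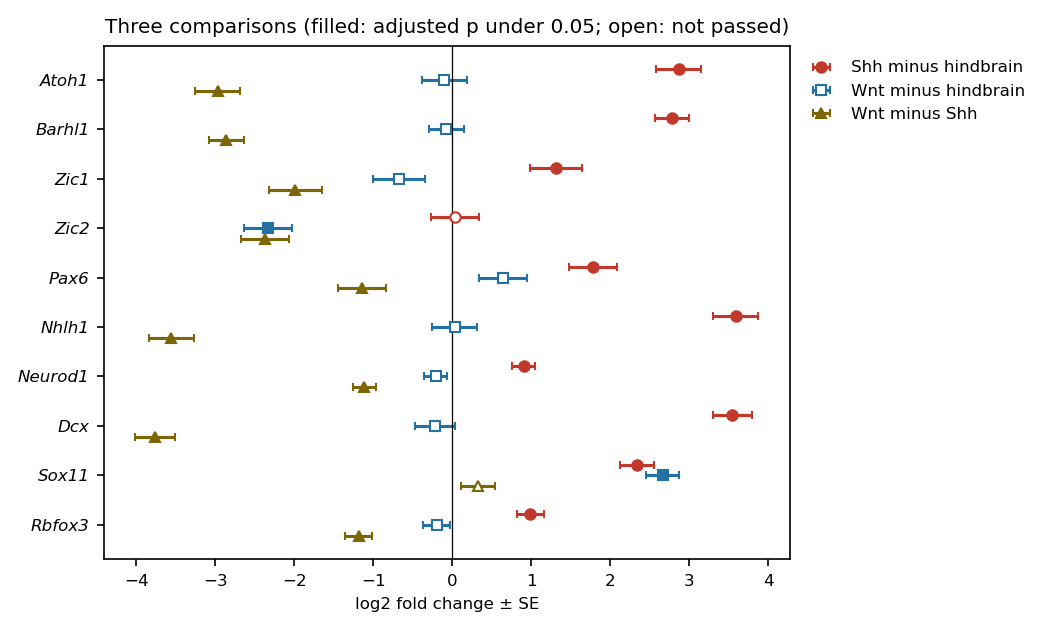
Log2 fold change ± SE (horizontal axis) of each gene in Shh minus hindbrain (circles), Wnt minus hindbrain (squares) and Wnt minus Shh (triangles), filled where the adjusted p was under 0.05. Values of Nhlh1 and Dcx are limited by the background in hindbrain and Wnt arrays, and Sox11 is at 2.34 and 2.66 in the tumours and Zic2 at -2.33 in Wnt alone of the 2 tumours.

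Several genes of the panel varied widely among the Shh arrays. Standard deviations over the 8 arrays were 1.02 for Nhlh1, 1.02 for Atoh1, 0.99 for Pax6 and 0.86 for Dcx, larger than for 98.8% of all genes or more. In hindbrain the same genes had 0.25, 0.22, 0.22 and 0.26, with Nhlh1 and Dcx within the background there. Other genes varied less: Sox11 had 0.57 in Shh and 0.39 in hindbrain, Zic1 0.42 and 0.41, and Zic2 0.21 and 0.11, its Shh value larger than for 48.8% of all genes. Shh array 3 was the lowest of its group in 8 of the 10 genes and array 7 the highest in 6. Nhlh1, for example, was at 6.30 in array 3 and 9.44 in array 7, and Atoh1 at 7.24 and 10.22. Without array 3, all 9 rises in Shh against hindbrain were still called.

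Genes of the panel rose and fell together over the Shh arrays. Of 45 pairs, 36 had a positive Pearson correlation, and these were all the pairs without Zic2, from 0.525 to 0.968. All 9 pairs with Zic2 were negative, from -0.597 to -0.263. This split by Zic2 was made after the values were seen and was given no test. Over 135 relations (45 pairs in 3 groups, exact permutation, two-sided), 18 pairs passed at an adjusted p under 0.05 in Shh, 1 in hindbrain and 2 in Wnt arrays. Nhlh1 and Dcx gave r = 0.968 (exact permutation p = 0.000422, adjusted p = 0.00632) and rho = 0.952 (exact permutation p = 0.00114, adjusted p = 0.0140) in Shh, and r = 0.913 without the 2 arrays farthest from the median of Nhlh1. Atoh1 and Barhl1 gave r = 0.939 (exact permutation p = 0.000347, adjusted p = 0.00632) and rho = 0.905 (exact permutation p = 0.00456, adjusted p = 0.0474), and r = 0.864 without the 2 farthest. With the 2 farthest arrays left out, the median r of the 36 pairs went from 0.839 to 0.742, and all 36 stayed positive. Whether the correlations differ between groups was not tested.

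Among the 3 pairs that passed elsewhere, Zic1 and Zic2 did not pass in Shh (r = -0.541, adjusted exact permutation p = 0.356), and the other 2 passed there with the opposite sign. In Wnt arrays, Zic1 and Zic2 gave r = 0.946 (exact permutation p = 2.48e-05, adjusted p = 0.00335) and rho = 1 (exact permutation p = 4.96e-05, adjusted p = 0.00335), with r = 0.916 without the 2 farthest arrays. Their arrays fell in the same order, from array 1 (7.40 and 6.81) to array 4 (10.67 and 10.29). Nhlh1 and Sox11 gave r = -0.876 (exact permutation p = 0.00548, adjusted p = 0.0382) with rho = -0.833 (exact permutation p = 0.0154, adjusted p = 0.0989) there, r = -0.890 without the 2 farthest, against r = 0.939 in Shh (adjusted exact permutation p = 0.00632). Nhlh1 was within the background in all of these Wnt arrays. In hindbrain, Sox11 and Barhl1 gave r = -0.857 (exact permutation p = 0.00563, adjusted p = 0.0382) and rho = -0.738 (exact permutation p = 0.0458, adjusted p = 0.159), with r = -0.559 without the 2 farthest arrays, against r = 0.918 in Shh (adjusted exact permutation p = 0.0110). Barhl1 spanned only 5.13 to 5.40 over these hindbrain arrays, with 3 of them under the background limit.

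**Figure D3:**
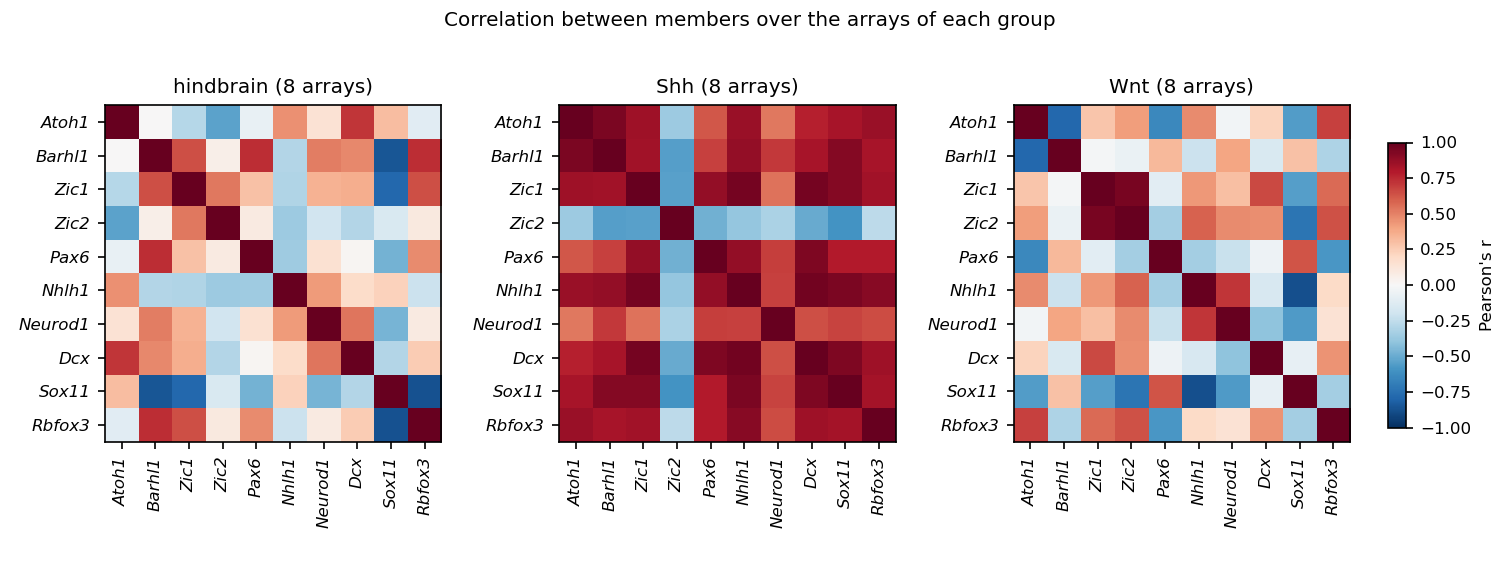
Pearson's r (colour, from -1 to 1) between every pair of the 10 genes over the 8 arrays of each group. In Shh arrays all pairs are positive (0.525 to 0.968) except the 9 with Zic2, and in Wnt arrays Zic1 and Zic2 form the strongest pair (0.946).

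The level of endothelial markers moved against most of the panel within the Shh group. The mean of 16 markers spanned 11.23 to 11.74 over those arrays, lowest in array 7 and highest in array 3. Of 10 genes, 9 were negatively correlated with it and 7 passed (adjusted over 30 relations, 10 genes in 3 groups). Atoh1 gave r = -0.940 (exact permutation p = 0.00179, adjusted p = 0.00670) and rho = -0.905 (exact permutation p = 0.00456, adjusted p = 0.0137), with r = -0.901 without the 2 arrays farthest from the median marker level. Nhlh1 gave r = -0.891 (exact permutation p = 0.000347, adjusted p = 0.00347) and rho = -0.952 (exact permutation p = 0.00114, adjusted p = 0.00837), with r = -0.927 without the 2 farthest. Zic1 gave r = -0.939 (exact permutation p = 0.000223, adjusted p = 0.00347) and rho = -0.976 (exact permutation p = 0.000397, adjusted p = 0.00837), with r = -0.957 without the 2 farthest. Dcx, Sox11, Barhl1 and Rbfox3 also passed, and Pax6 (r = -0.766, adjusted exact permutation p = 0.0644) and Neurod1 (r = -0.522, adjusted exact permutation p = 0.260) did not.

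Zic2 ran the other way. Its correlation with the endothelial marker mean was r = 0.864 in hindbrain (exact permutation p = 0.00159, adjusted p = 0.00670), with rho = 0.905 (exact permutation p = 0.00456, adjusted p = 0.0137) and r = 0.849 without the 2 farthest arrays. In Wnt arrays it was r = 0.916 (exact permutation p = 0.00166, adjusted p = 0.00670), with rho = 0.929 (exact permutation p = 0.00223, adjusted p = 0.00837) and r = 0.901 without the 2 farthest. In Shh arrays it was r = 0.591 (exact permutation p = 0.109, adjusted p = 0.192) and rho = 0.571 (exact permutation p = 0.151, adjusted p = 0.283). Zic1 followed the markers in Wnt arrays as well, with r = 0.881 (exact permutation p = 0.00508, adjusted p = 0.0170) and rho = 0.929 (exact permutation p = 0.00223, adjusted p = 0.00837), and r = 0.854 without the 2 farthest. So Zic1 was high where endothelial markers were low among Shh arrays and high where they were high among Wnt arrays, a difference between groups that was not itself tested. The fall of Zic2 in Wnt arrays stands beside the lower endothelial marker mean of those arrays (10.51 ± 0.48 against 11.53 ± 0.11 in hindbrain, SD, n = 8), and the part of one in the other was not tested.

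**Figure D4:**
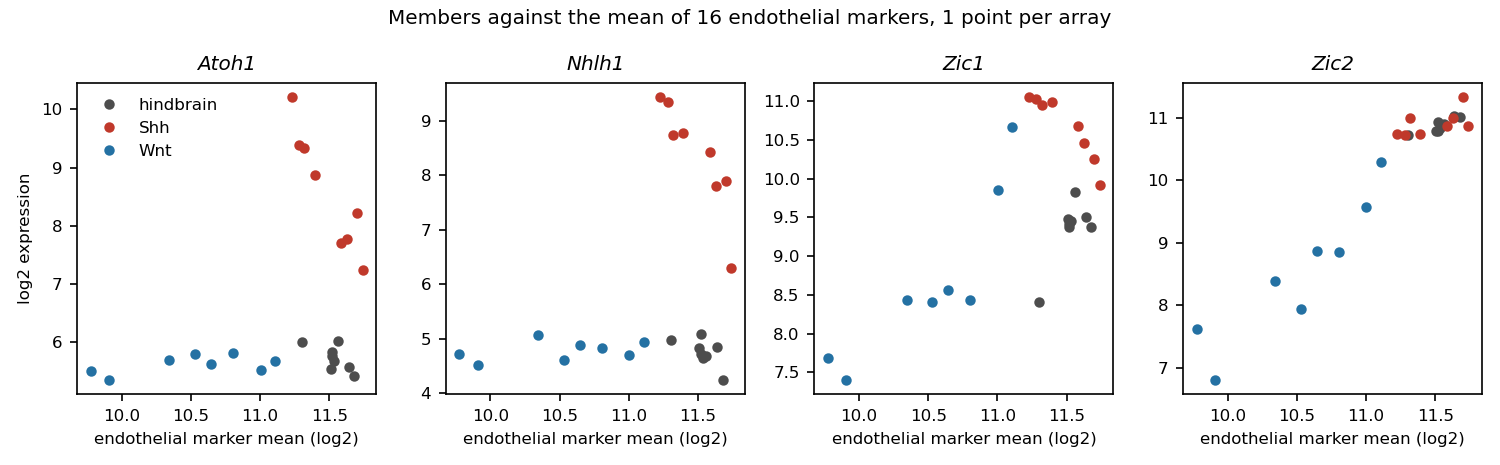
Log2 expression of Atoh1, Nhlh1, Zic1 and Zic2 (vertical axes) against the mean of 16 endothelial markers (horizontal axis, log2), 1 point per array, coloured by group. Shh points of Atoh1 (r = -0.940), Nhlh1 (r = -0.891) and Zic1 (r = -0.939) descend, and Wnt points of Zic1 (r = 0.881) and Zic2 (r = 0.916) ascend.

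Relations with 6 further gene lists were added after the values were seen and adjusted over 180 relations. In Shh arrays, the mean of 10 Shh pathway genes was positively correlated with 7 of the 10 genes, that of 23 immature neuron genes with 6 and that of 13 cell cycle genes with 5. Atoh1 and the mean of the Shh pathway genes gave r = 0.974 (exact permutation p = 0.000496, adjusted p = 0.00992) and rho = 0.905 (exact permutation p = 0.00456, adjusted p = 0.0411), with r = 0.937 without the 2 farthest arrays. In the same arrays, no gene of the panel passed against fibroblast, pericyte and smooth muscle, or microglia markers. In Wnt arrays, the single Pearson relation that passed was that of Zic2 with the mean of 14 pericyte and smooth muscle markers, at r = 0.903 (exact permutation p = 0.00280, adjusted p = 0.0299) and rho = 0.952 (exact permutation p = 0.00114, adjusted p = 0.0158), and r = 0.826 without the 2 farthest arrays. Zic1 passed there by rank alone (rho = 0.952, exact permutation p = 0.00114, adjusted p = 0.0158; r = 0.855, adjusted exact permutation p = 0.0742).

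Other genes of the lineage gave a mixed picture. Of 21 further rhombic lip and granule precursor genes, 11 were higher and 1 lower in Shh against hindbrain (18.9% of all genes in each direction), with a median of 0.52. Nhlh2, the close relative of Nhlh1, rose by 3.28 ± 0.23 (adjusted p = 8.67e-11), and Mab21l1 by 3.22 ± 0.43 (adjusted p = 1.87e-06). The hindbrain mean of Nhlh2 (5.22) was just under the background limit (5.24), so the size of its rise is limited by the background. In Wnt against hindbrain, 9 were higher and 5 lower (23.2% and 22% of all genes), with a median of 0.19, and the genes at the top were others. Lhx9, a homeobox factor of rhombic lip derivatives, rose by 4.10 ± 0.53 and Meis2, another homeobox factor, by 3.77 ± 0.26, with -0.093 ± 0.53 and 0.18 ± 0.26 in Shh against hindbrain. Zic5 fell in Wnt by 1.16 on the log2 scale, and Zic4, picked out because its pattern was near that of Zic1, gave -0.57 ± 0.17 in Wnt and 0.65 ± 0.17 in Shh against hindbrain.

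Genes of young neurons were higher in Shh arrays in most cases. Over all genes, 18.9% were called higher and 18.9% lower in Shh against hindbrain, and 23.2% and 22% in Wnt against hindbrain. Of 23 immature neuron genes, 19 were higher and 1 lower in Shh against hindbrain, with a median of 1.21, and Tubb3 (3.19 ± 0.38) and Crmp1 (3.16 ± 0.28), both of the cytoskeleton of growing axons, rose the most. In Wnt against hindbrain, 5 were higher and 7 lower, near the shares over all genes, with a median of -0.069. Dpysl3, another gene of axon growth, rose there by 3.89 ± 0.17 and Stmn2, a regulator of microtubules, fell by 3.71 on the log2 scale. Markers of mature granule neurons were lower or did not pass in Shh. Their mean varied widely over hindbrain arrays, from 5.52 to 7.20, and overlapped that of Shh arrays, from 5.43 to 5.97. Of 9 such genes, 0 were higher and 5 lower in Shh, and 1 higher and 5 lower in Wnt. Vsnl1 was at -1.54 ± 0.32 in Shh against hindbrain (adjusted p = 0.00044). Gabra6, a GABA receptor subunit of granule neurons, gave a fitted -1.32 ± 0.35 there (adjusted p = 0.00401). Even its highest group mean, that of hindbrain (5.01), was under the background limit (5.24), so the Gabra6 difference is no measure of a fold. Cbln1, a synaptic organiser, rose by 1.37 ± 0.42 in Wnt. Of 12 genes of other neurons, 3 were higher and 4 lower in Shh and 4 higher and 2 lower in Wnt, not far from the shares over all genes.

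Of 10 measured Shh pathway genes, 8 were higher and 0 lower in Shh (median 1.14), where 18.9% of all genes were called in each direction. The list, which includes Gli2 and Boc, holds genes of several roles, so its counts are no measure of pathway activity. In Wnt, 6 were higher, 3 did not pass and 1, the growth factor Igf2, was lower (-1.59 ± 0.19), with a median of 1.24, where 23.2% of all genes were higher and 22% lower. Single genes of the list differed between the tumours. Gli1, the transcription factor that reports pathway activity, gave 1.55 ± 0.32 in Shh (adjusted p = 0.000375) and -0.016 ± 0.32 in Wnt against hindbrain (adjusted p = 0.972), and was lower in Wnt than Shh (-1.57 ± 0.32, adjusted p = 0.000312). Hhip, a Shh-binding membrane protein, rose by 4.65 ± 0.32 in Wnt and 2.01 ± 0.32 in Shh. Its hindbrain mean of 5.22 was just under the background limit, so both sizes are limited by the background. Of 13 cell cycle genes, 12 were higher in each tumour, with medians of 2.38 in Shh and 2.34 in Wnt, and Pcna, a replication clamp, was lower in Wnt (-0.33 ± 0.11). Between the tumours 0 of the 13 passed in limma after adjustment and 1 had an unadjusted p under 0.05, with a median of -0.23 in Wnt minus Shh. Of 8 brainstem progenitor genes, 1 was higher and 2 lower in Shh, and 0 higher and 2 lower in Wnt, with Pou4f1, a factor of brainstem neurons, at 1.26 ± 0.23 in Shh.

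**Figure D5:**
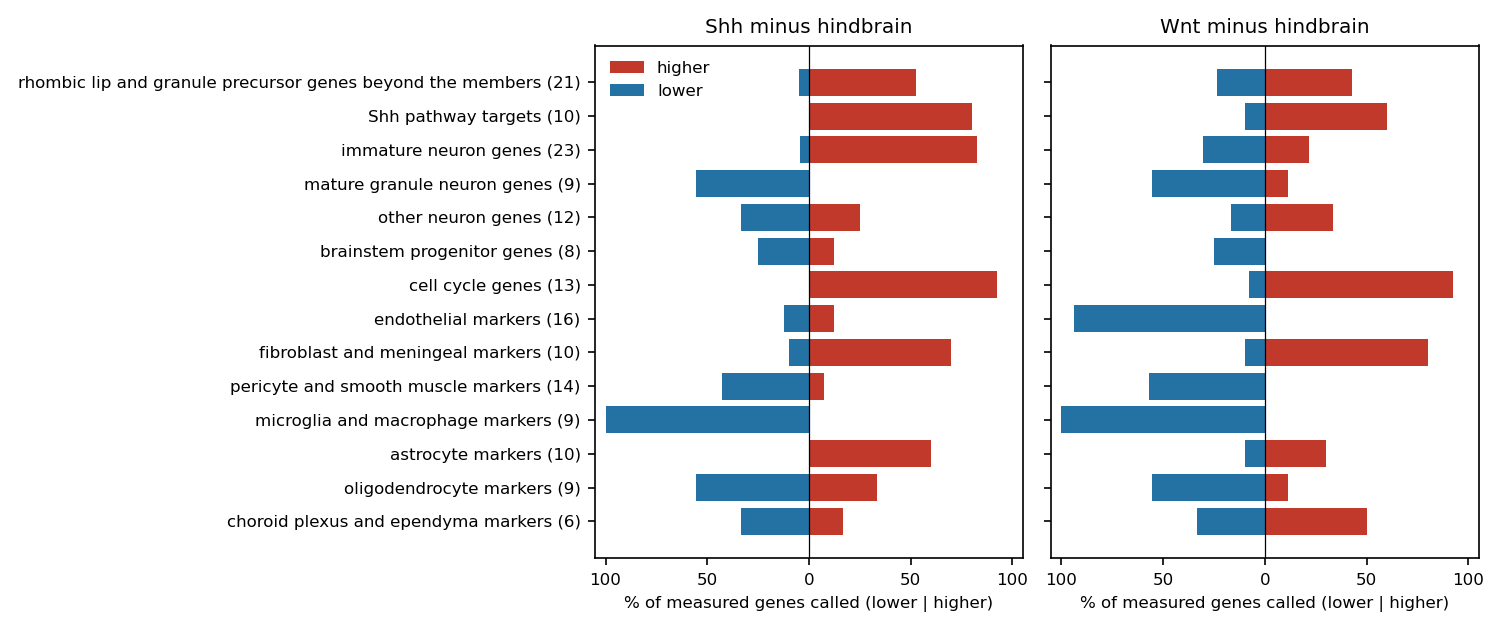
Percent of the measured genes of each list (number in brackets) called higher (right, red) or lower (left, blue) at an adjusted p under 0.05, in Shh minus hindbrain and Wnt minus hindbrain. Immature neuron genes are mostly higher in Shh (19 of 23) and divided in Wnt (5 higher, 7 lower), and cell cycle genes are higher in both (12 of 13). Over all genes, 18.9% were higher and 18.9% lower in Shh, and 23.2% and 22% in Wnt. The list shown as Shh pathway targets holds pathway genes of several roles.

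Genes with the pattern most like each panel gene were named by Pearson's r over all 24 arrays, which reflects the group differences above all and is given as a description. Nhlh2 was nearest to Nhlh1 (0.987) and Barhl1 (0.983), and among the nearest of Dcx (0.982) and Atoh1 (0.981). Nearest to Dcx was the long non-coding RNA Miat (0.984), whose Shh mean was 8.63, against 5.31 (hindbrain) and 5.09 (Wnt), and nearest to Atoh1 was Tbata (0.985). Sox11 was nearest to Prr36 (0.960), Mex3a (0.960) and Dcc, an axon guidance receptor (0.958), whose hindbrain mean was 5.58, against 9.26 (Shh) and 8.98 (Wnt). For Zic2 the nearest genes were Erg, an endothelial transcription factor (0.965), the amino acid transporter Slc38a3 (0.962) and Foxc1, a forkhead factor of mural and meningeal cells (0.961). Zic1 was nearest to Camta1 (0.927), Zic4 (0.926) and S1pr3 (0.912). Pax6 (Rgs13, 0.920), Neurod1 (Gpsm1, 0.907) and Rbfox3 (Trim67, 0.942) had less close neighbours.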

How the data were processed

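RNA of cells sorted with Cd105 and Cd144 antibodies was hybridised to Affymetrix mouse arrays, per the labels' protocols. The deposited table holds 1 log2 expression value for each probe set on each array, a unit inferred from the values. Partek 6.6 is named in the submitters' processing notes without its role. How probes were summarised and arrays normalized is not given in the sources used here. Of 41345 probe sets, 23521 carried 1 gene symbol in the platform annotation, and the one with the highest mean stood for each of 22180 genes. Every panel gene had a single such probe set, and no filter was applied. Groups of 8 arrays were compared in R 4.3.3 by moderated linear models (limma 3.58.1, group as the only factor, 21 residual degrees of freedom, two-sided, Benjamini-Hochberg over all genes). Intervals are 95% and unadjusted. Correlations over 8 arrays were tested by all 40320 permutations in Python 3.11.15. The fit was tested on simulated data.

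The panel and the gene lists were chosen with earlier results of these data known. Lists are described by counts and medians, with no set test, and Sfrp1 and Boc are in both the rhombic lip and the Shh pathway list. Named were all panel genes, the genes at the extremes of each list among those called, and the 3 nearest genes of each panel gene, of which the text prints part. Alternatives were the mean of probe sets, quantile normalization, a median shift over the tested genes, a filter on dim genes, array weights, a trend in the variance, the compared groups alone, a replicate block and leaving out each array.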

Additional observations from a re-analysis of the deposited data

Results flagged for a closer look

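In hindbrain array 6, Zic1 was at 8.40, far below the other 7 arrays, the nearest of which was at 9.37. The same array had the lowest endothelial marker mean (11.30) and the lowest pericyte and smooth muscle marker mean (9.65) of its group, and their part in the value was not tested. In Shh array 6, Zic2 was at 11.34, above the other 7, the nearest of which was at 11.01. Such a gap was judged by Dixon's ratio of the gap to the group's range (0.680 for Zic1 and 0.542 for Zic2) against its 95% critical value, which chance passes in about 1 group in 20, and 30 groups of values were examined.

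A probe set annotated with both Neurod1 and Cerkl was left out of the comparisons because it names no single gene. It had a mean of 8.90 ± 1.05 in Shh arrays (SD, n = 8), against 5.87 ± 0.48 in the hindbrain and 5.38 ± 0.29 in the Wnt group. Its Shh arrays, from 6.74 to 9.97, all lay above the hindbrain arrays (5.28 to 6.56). The probe set naming Neurod1 alone rose by 0.90 on the log2 scale. The other such probe set of the panel, naming Elp4 and Pax6, is described with Pax6.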

How the results depend on the processing

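Of 30 differences (10 genes in 3 comparisons) set against 7 alternatives and 24 fits without 1 array, 923 of 930 values kept their call and direction or stayed short of the threshold, 0 reversed or lost a call, and 7 gained one, all of Zic1 or Pax6 in Wnt against hindbrain. The count of panel genes called stayed at 9 in Shh minus hindbrain and 9 in Wnt minus Shh, and ran from 2 to 3 in Wnt minus hindbrain, both without each array and under the other alternatives. With the replicate number as a block, the counts were 2 in Wnt minus hindbrain, 9 in Shh minus hindbrain and 9 in Wnt minus Shh. The labels name no pairing by array number. Deviations of 24 same-numbered pairs correlated from -0.146 to 0.282, and 6 of 24 arrays correlated best with their own number in another group. These values were not set against chance, and whether same-numbered arrays share a pairing or batch was not tested. Each panel gene has 1 probe set, so testing further probe sets could not be run, and taking the mean of probe sets, left out of these numbers, gave identical differences by construction. Shifting arrays to a common median moved the median of all genes from -0.023 to -0.14 in Wnt minus hindbrain and from -0.020 to -0.11 in Shh minus hindbrain, and the percentage of calls that were higher from 51.3% to 34.9% and from 50.1% to 33.4%. Levels within the ERCC range, as of Nhlh1 and Dcx outside the Shh arrays, bound how well the size of their rises is known.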

Other observations

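Markers of other cells were read in the same arrays. Over all genes, 18.9% were called higher and 18.9% lower in Shh against hindbrain, and 23.2% and 22% in Wnt against hindbrain. These shares stand beside every count in this section, and with few genes per list a count near them is not read as a result about the list. Of 10 astrocyte markers, 6 were higher and 0 lower in Shh against hindbrain, led by Fabp7 (3.04 ± 0.32), a fatty acid binding protein of glial progenitors, and Gfap (2.09 ± 0.32). In Wnt, 3 were higher and 1 lower. Of 9 oligodendrocyte markers, 3 were higher and 5 lower in Shh, where the lineage factors Olig2 (1.88 ± 0.33) and Olig1 (1.80 ± 0.30) rose and the myelin genes Mobp (-2.57 ± 0.19) and Mag (-2.01 ± 0.21) fell. In Wnt, 1 was higher and 5 lower, with Mbp, a myelin protein, at -2.75 ± 0.15. Mag had a Shh mean of 5.23, just under the background limit, so the size of its fall in Shh is limited by the background.

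Of 10 fibroblast and meningeal markers, 7 were higher and 1 lower in Shh and 8 higher and 1 lower in Wnt against hindbrain. Ogn, a matrix proteoglycan, fell in Shh (-1.65 ± 0.32) and was higher in Wnt than Shh (4.03 ± 0.32). Of 14 pericyte and smooth muscle markers, 1 was higher and 6 lower in Shh and 0 higher and 8 lower in Wnt. All 9 microglia and macrophage markers fell in both tumours, with P2ry12, a purine receptor of microglia, at -2.94 ± 0.37 in Shh and -3.45 ± 0.37 in Wnt. Of 6 choroid plexus and ependyma markers, 1 was higher and 2 lower in Shh and 3 higher and 2 lower in Wnt, where Otx2, a homeobox factor of the choroid plexus, rose by 4.93 ± 0.46 and Ttr, the thyroid hormone carrier, gave -3.20 ± 0.91. The mean of these 6 markers varied widely over hindbrain arrays, from 6.24 to 8.86. It spanned 6.58 to 7.84 over Shh and 8.45 to 8.78 over Wnt arrays.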
